A study of Mus musculus with 60 samples.

Results

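The nuclear-encoded subunits of respiratory complexes II, III, IV and V were followed across whole fat of mice. They were taken by name alone, as every row of the count table whose symbol is Sdha, Sdhb, Sdhc, Sdhd or Cyc1 or starts with Uqcr, Cox4, Cox5, Cox6, Cox7, Cox8 or Atp5, with nothing but letters and digits after it. This gave 49 of 55011 genes, of which complex II (succinate dehydrogenase) had 4, complex III (cytochrome bc1) 9, complex IV (cytochrome c oxidase) 19 and complex V (ATP synthase) 17. One of the 19, Cox6c2, is annotated as a processed pseudogene. Cox7b2 and Cox8c, isoforms known from testis, had 3 and 2 counts over all whole-fat libraries and passed the filter on low counts in no comparison.

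Complex II passes electrons from succinate to ubiquinone, complex III passes them on to cytochrome c, complex IV reduces oxygen with them, and complex V makes ATP from the proton gradient that complexes III and IV help to build. In brown fat the uncoupling protein Ucp1 lets protons return without making ATP, so that respiration yields heat, and rodent brown fat is known for much respiratory chain and little ATP synthase. Complex IV has subunits that come in alternative forms: Cox6a2, Cox7a1 and Cox8b are known from heart and skeletal muscle, the last 2 also from brown fat, and Cox6a1, Cox7a2 and Cox8a are made in most tissues. The c subunit of complex V is encoded by Atp5g1, Atp5g2 and Atp5g3, which give the same mature protein.

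RNA of whole fat was sequenced in 52 of the 60 libraries of the study, 38 from brown (BAT) and 14 from subcutaneous (SAT) adipose tissue of 8-week-old males. The study removed regulatory T (Treg) cells, which express Foxp3, and compared fat with and without them. In B6.Foxp3.DTR mice cells that express Foxp3 carry the diphtheria toxin receptor, so the toxin (DT) removes them throughout the body. DTR+ and DTR- mice, both given DT, were compared in BAT and SAT in groups named D4 (4 libraries each) and D3 (3 each), names the labels do not explain. The titles of all D3 libraries also name PBS, and those of the D4 libraries do not. All further groups were BAT with 3 libraries each. DTR+ and DTR- mice were given DT and CL, an agent the labels name only by this code, and DTR- mice were given DT and PBS. Wild-type C57BL/6J mice, with no toxin in the labels, received PC61, an antibody to CD25 on Treg cells, or an isotype antibody. DTR+ mice with DT received an antibody to interferon gamma (IFNg) or an isotype antibody. The last group was kept at 4 degrees, with titles that say WT, genotype labels that say DTR-, PBS as treatment and no toxin named. The labels do not say that libraries of a group are separate animals. A p-value here is set against the variation among libraries of a group, which may be only technical.

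Library totals of whole fat ran from 3007241 to 9673342 counts. Levels are CPM, read counts relative to library sizes that were scaled by TMM over all whole-fat libraries, and a gene was called where edgeR's quasi-likelihood test gave an adjusted p under 0.05 over all genes tested. Foxp3 had 0 to 7 counts in a BAT library and 0 to 29 in a SAT library, too few to check the removal of Treg cells at this depth. The tissue labels were checked against 7 markers of brown adipocytes, whose summed level was 7502 to 29119 CPM in BAT and 156 to 1287 CPM in SAT. Summed levels of 14 skeletal muscle markers ran from 53.0 to 10072 CPM between BAT libraries. Near copies elsewhere in the genome (at least 95% identity over at least 50% of the transcript) exist for Atp5l (9 genes), Atp5h and Uqcrb (3 each), Atp5g2 (2) and Atp5g1, Atp5c1, Atp5k, Atp5o, Cox7c and Cox6c2 (1 each), and how reads with several matches and read strands were treated is not given in the sources used here. Values of those members are therefore uncertain.

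Promoters are shown for the 2 complex IV subunit pairs that the comparison of the tissues turns on, the isoform known from muscle and brown fat followed by its partner made in most tissues. The sequences are RefSeq's on GRCm38.p6, written 5′ to 3′ on the gene's strand from 250 to 31 bases before the start that RefSeq's table uses, and capitals mark each CG dinucleotide. Gene coordinates given with the results are from the GENCODE annotation of mm10, whose start of Cox7a1 is another one. Cox7a1 lies at chr7:30183921-30184140 (plus strand), Cox7a2 at chr9:79759884-79760103 (minus), Cox8b at chr7:140900477-140900696 (minus) and Cox8a at chr19:7217647-7217866 (minus).
Cox7a1: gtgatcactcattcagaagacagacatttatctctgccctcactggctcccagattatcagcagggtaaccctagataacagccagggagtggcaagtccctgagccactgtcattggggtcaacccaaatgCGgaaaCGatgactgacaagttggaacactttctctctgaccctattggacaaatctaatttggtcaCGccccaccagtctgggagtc
Cox7a2: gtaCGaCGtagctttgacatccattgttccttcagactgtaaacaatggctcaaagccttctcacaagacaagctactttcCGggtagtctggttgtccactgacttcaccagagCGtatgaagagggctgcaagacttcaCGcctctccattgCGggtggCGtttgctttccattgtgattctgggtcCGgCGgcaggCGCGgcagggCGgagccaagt
Cox8b: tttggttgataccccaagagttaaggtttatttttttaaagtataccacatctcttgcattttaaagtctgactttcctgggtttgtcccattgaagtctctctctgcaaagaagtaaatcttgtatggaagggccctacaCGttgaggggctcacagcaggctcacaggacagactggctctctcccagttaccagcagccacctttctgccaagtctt
Cox8a: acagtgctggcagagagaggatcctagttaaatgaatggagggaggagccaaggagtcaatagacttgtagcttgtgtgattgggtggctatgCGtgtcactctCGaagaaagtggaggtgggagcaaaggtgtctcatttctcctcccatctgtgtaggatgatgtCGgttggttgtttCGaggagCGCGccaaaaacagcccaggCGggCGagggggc

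The stretch of Cox7a1 held 3 CG dinucleotides, against 12 for Cox7a2, and that of Cox8b held 1, against 8 for Cox8a. In the full window of 300 bases, which ends 50 bases after the start, Cox7a1 had 7 and Cox8b 2, while the median was 19 over the 36 members in the RefSeq table and 7 over all 27025 symbols in it. Motifs were searched on both strands of that window. CCGGAAGT, the core of ETS factors such as GABP, was in 11.1% of the members (Atp5h, Cox8a, Uqcr11 and Uqcrh), against 4.31% of all promoters. TGCGCATGC of NRF1 was in 8.33% (Atp5g2, Atp5l and Uqcrc1), against 1.72%, AAGATGGCG of YY1 in 5.56% (Atp5j and Atp5j2), against 1.64%, and TCAAGGTCA of the ERR receptors in 5.56% (Atp5g3 and Sdhd), against 0.466%. NRF1, GABP and the ERR receptors are known regulators of respiratory genes. None of these letters was in the windows of Cox7a1 or Cox8b, nor in those of most of the 36 members, such as Cox7a2, Sdha and Atp5b.

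In DTR- mice, whose cells lack the toxin receptor, complexes II to V together were several times higher in BAT than in SAT. In D4 DTR- mice the summed level of the members was 79068 ± 4706 CPM in BAT and 18136 ± 2029 CPM in SAT (SD, n = 4 each). Of 46 members tested 44 were higher in BAT and 1 was lower, where 25.9% and 25% of all 12310 genes tested (50.9% in all) were called higher and lower, and the members' median log2 fold change was 2.08, against 0.01 for all genes. In D3 DTR- mice 44 were higher and 1 lower of 47, with a median of 2.04, and there 23% and 22.9% of all 12387 genes (45.9% in all) were called. Scaling by total counts moves the median of all genes by -0.48 and gives 1661 genes higher and 5618 lower in place of 3191 and 3077 in D4. Of the members 42 were then called higher and 3 lower. Relative to the all-gene median the members stood at 2.07 under both scalings. A change of scaling shifts all genes about alike, so this relative value is nearly fixed and is no check of the difference. In D3 total-count scaling moves the median of all genes by -0.47 and gives 1608 higher and 5215 lower in place of 2850 and 2838. There 43 members were higher and 3 lower, and the relative median, nearly fixed in the same way, was 2.06 under both. Markers of other cells differed between the tissues too: in D4 the brown adipocyte markers were higher in 7 of 7 and the endothelial markers in 5 of 5 (median 0.99), while the leukocyte markers were lower in 6 of 6 tested (median -3.05) and the fibroblast markers in 5 of 5 (median -2.68). Skeletal muscle markers were higher in 2 of 11 tested and lower in 0 (median 3.51). General adipocyte markers were higher in 1 and lower in 4 of 8. Their part in the members' difference was not tested.

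**Figure D1:**
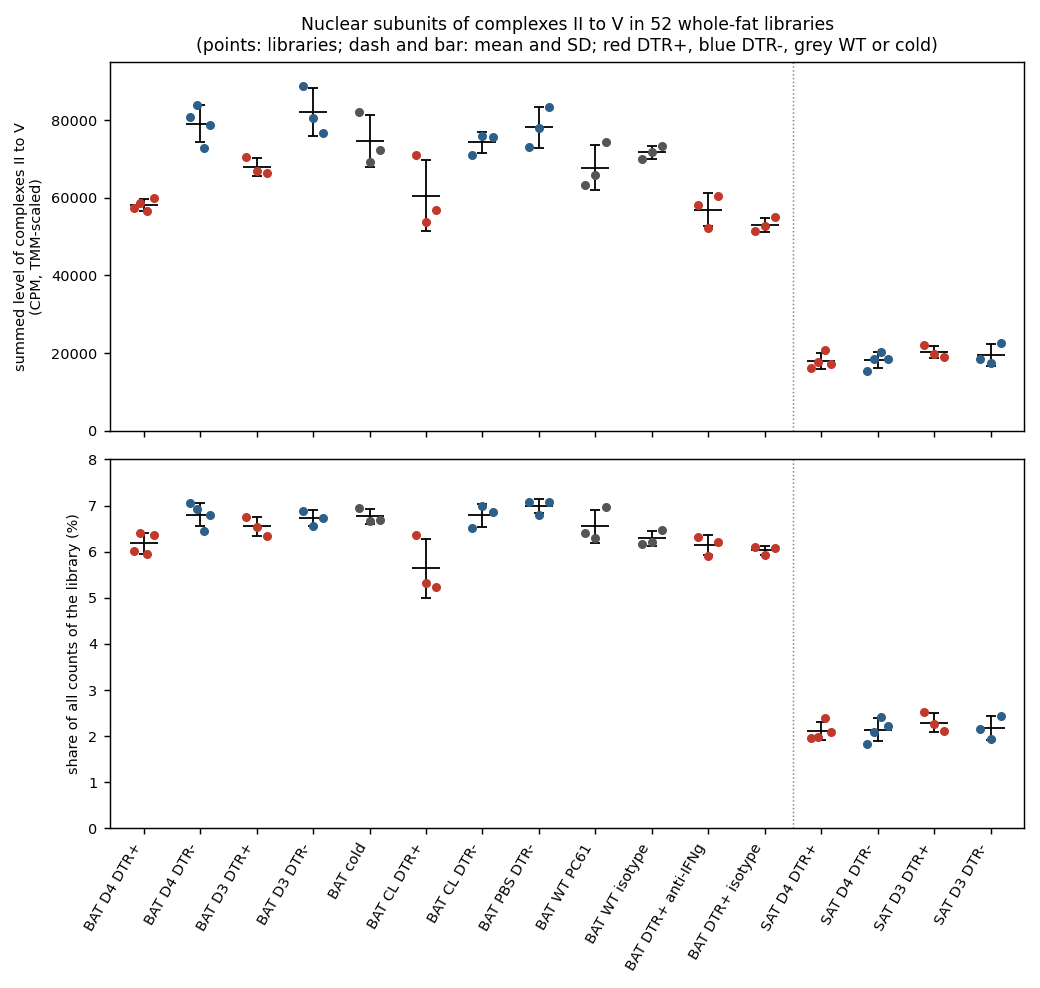
Summed level of the members in CPM (upper axis) and their share of all counts of a library in percent (lower axis), for each of the 52 whole-fat libraries by group; points are libraries, dashes and bars the mean and SD. All BAT libraries lie above all SAT libraries on both axes, and D4 BAT DTR+ libraries (56514 to 59967 CPM) lie below D4 BAT DTR- libraries (72800 to 83985 CPM).

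All 4 subunits of complex II were higher in BAT (median 2.26 in D4), led by Sdhd, a membrane anchor, at 2.60 ± 0.11 (log2 fold change and SE, edgeR adjusted p = 8.7e-10), with Sdhb, the iron-sulfur subunit, at 2.50 ± 0.12. All 9 of complex III were higher (median 2.34), with the core protein gene Uqcrc1 (chromosome 9, 108936633 to 108949623) at 2.72 ± 0.14 and Cyc1, the heme subunit cytochrome c1, at 2.64 ± 0.13. All 16 tested of complex IV were higher (median 2.29, range 1.04 to 5.99). The lowest of them, Cox4i2 at 1.04 ± 0.37, was called in 2 of 8 fits without 1 library (edgeR adjusted p up to 0.085), was not called under total-count scaling (0.56, adjusted p = 0.21), and in D3 its call held in 0 of 6 fits without 1 library. Complex V was the most mixed, with 15 of 17 higher, 1 lower and a median of 1.96. Related genes were higher in BAT as well: all 36 tested complex I subunits (median 2.06), 30 of 32 assembly factors, all 6 mitochondrially encoded subunits and 7 of 11 regulators, with the nuclear receptors Ppara at 4.32 ± 0.23 and Esrrg at 5.31 ± 0.48, and none of these was lower. Of the 5 carrier, inhibitor and supercomplex genes 4 were higher and 1 lower, with cytochrome c, Cycs, among those higher (2.62 ± 0.16 in D3).

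Cox7a1 (chromosome 7, 30184144 to 30186078) separated the tissues most among the members in D4. It stood at 978, 973, 794 and 925 CPM in D4 DTR- BAT, against 4.7, 9.0, 24.6 and 19.7 CPM in D4 DTR- SAT. The lowest BAT library was more than an order of magnitude above the highest SAT library, and the log2 fold change was 5.99 ± 0.52 (edgeR adjusted p = 5.6e-05) in D4 and 5.86 ± 0.53 in D3. Its partner Cox7a2 differed by 2.02 ± 0.10 in D4. Of these BAT libraries, replicates 3 and 4 had muscle marker sums of 3837 and 3143 CPM, and replicates 1 and 2 had 88.1 and 97.0 CPM, and the part of muscle in Cox7a1 was not tested.

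Cox8b (chromosome 7, 140898945 to 140900446) followed, with 2725, 2391, 2008 and 2378 CPM in D4 DTR- BAT, against 92.0, 117, 162 and 147 CPM in D4 DTR- SAT. The groups did not overlap, at a log2 fold change of 4.22 ± 0.18 (edgeR adjusted p = 1.1e-09), where Cox8a had 1.61 ± 0.10. Per kb of transcript, Cox8b was the highest of the 49 members in D4 DTR- BAT at 6598 CPM per kb, ahead of Cox4i1 at 6228 and the beta subunit gene Atp5b at 5293. In D4 DTR- SAT Cox4i1 led with 1788 CPM per kb, and Cox8b was 24th with 359. Cox7a1 was 14th in BAT at 2335 CPM per kb and 42nd in SAT at 36.9.

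Atp5g1 (chromosome 11, 96068852 to 96075670) went the other way. D4 DTR- BAT held 6.2, 5.6, 14.7 and 12.2 CPM, against 37.1, 38.05, 40.1 and 38.5 CPM in D4 DTR- SAT, and the log2 fold change was -1.95 ± 0.27 (edgeR adjusted p = 3.8e-05) in D4 and -1.92 ± 0.23 in D3. All BAT libraries were below all SAT libraries. Atp5g3 (chromosome 2, 73908447 to 73911326), from which most c-subunit RNA came in both tissues, had 362, 347, 346 and 337 CPM in D4 DTR- BAT and 358, 438, 425 and 431 CPM in D4 DTR- SAT. At -0.22 ± 0.10 (edgeR adjusted p = 0.065) it was not called, but under total-count scaling it was called lower at -0.70 in D4 and -0.73 in D3. Atp5g2 was higher in BAT by 1.02 ± 0.14. Atp5j, which encodes coupling factor 6, was called higher in D4 at 0.27 ± 0.09, but under total-count scaling it was lower at -0.21 (edgeR adjusted p = 0.046), and in D3 it was not called.

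Shares within a subunit family do not depend on library scaling, so they were computed from counts per kb. Cox7a1 made up 53.8 ± 1.71% of Cox7a1 and Cox7a2 together in D4 DTR- BAT and 6.56 ± 3.68% in D4 DTR- SAT (SD, n = 4 each). Cox8b made up 63.0 ± 1.04% of the Cox8 pair in BAT and 21.6 ± 3.13% in SAT, and Atp5g1 2.76 ± 1.28% of the c-subunit trio in BAT and 9.45 ± 0.672% in SAT. Each of these, and the small share of Cox4i2 (0.103 ± 0.00861% in BAT, 0.175 ± 0.0430% in SAT), did not overlap between tissues and gave a two-sided exact permutation p of 0.0286. This is the smallest p that 4 against 4 allows, and adjusted over the 15 share tests it is 0.107, so no share passed the correction.

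**Figure D2:**
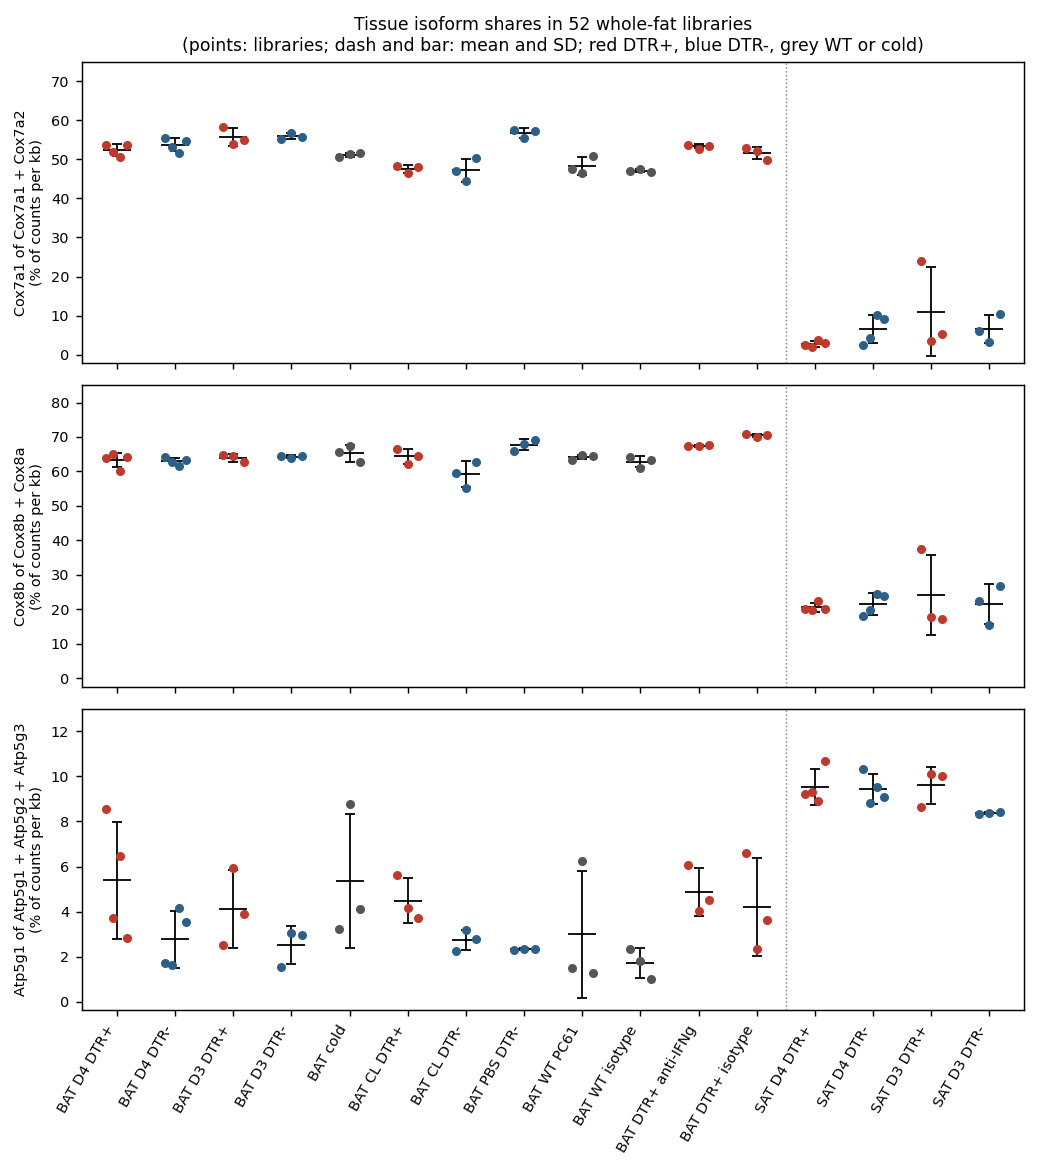
Share of Cox7a1 in the Cox7a1 and Cox7a2 pair (top), of Cox8b in the Cox8 pair (middle) and of Atp5g1 in the c-subunit trio (bottom), in percent of counts per kb, for 52 whole-fat libraries by group; points are libraries, dashes and bars the mean and SD. BAT group means of Cox7a1 lie between 47.1 and 56.8% and those of Cox8b between 59.2 and 70.5%, above every SAT library, while Atp5g1 is mostly lower in BAT (1.02 to 8.76% per library, against 8.33 to 10.7% in SAT).

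Within SAT, Cox7a1 was highest in the library with the highest sum of brown adipocyte markers, and the relation over all SAT libraries was not measured. That library, D3 DTR+ replicate 1 with a marker sum of 1287 CPM, had 74.1 CPM of Cox7a1, 322 CPM of Cox8b and a Cox7a1 share of 24.1%. The other D3 DTR+ libraries had marker sums of 255 and 294 CPM and Cox7a1 at 7.8 and 12.3 CPM. D3 DTR- replicate 3 and D4 DTR- replicate 3, with marker sums of 671 and 522 CPM, had 28.7 and 24.6 CPM of Cox7a1. Whether brown adipocytes within SAT account for these levels was not tested. In whole tissue, fewer cells of a type and less RNA per cell cannot be told apart.

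Cox6a2 (chromosome 7, 128205435 to 128206387), the heart and muscle form of subunit 6a, was low in BAT and tracked muscle markers library by library. It had no count in 11 BAT libraries, where a count of 0 allows up to 0.400 to 1.09 CPM (3 counts, on the same TMM scale, counting error only) and muscle marker sums were 53.0 to 139 CPM, and 5.01 to 35.8 CPM in 14 BAT libraries with sums of 1351 to 10072 CPM. The other 13 had up to 3.78 CPM and sums of 62.9 to 1090 CPM. Its share of the Cox6a pair in D4 BAT was 0.249 ± 0.452% in DTR+ and 0.255 ± 0.295% in DTR- mice (SD, n = 4 each; exact permutation p = 1). Atp5g1 also ran high in muscle-rich BAT libraries, such as 25.5 CPM with 8715 CPM of muscle markers in D4 DTR+ replicate 1, though cold replicate 2 had 27.6 CPM with 198 CPM. The part of muscle in these values was not tested.

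**Figure D3:**
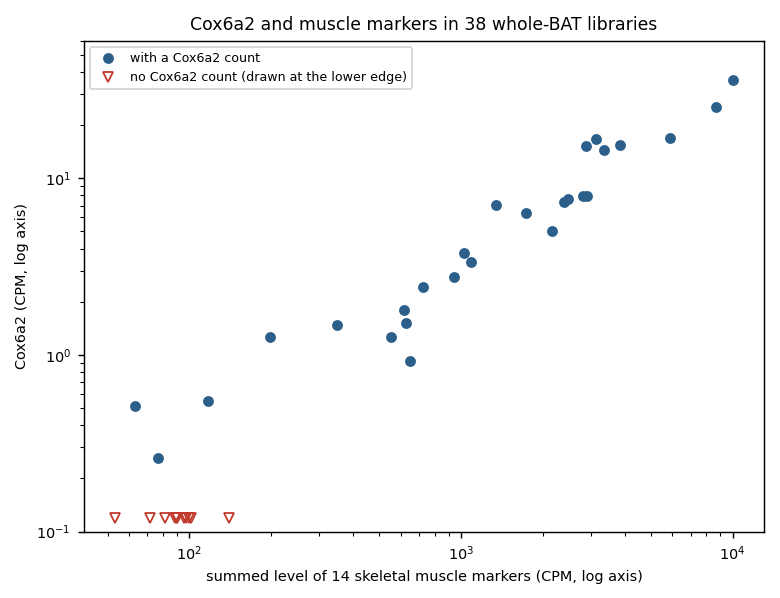
Cox6a2 in CPM against the summed level of 14 skeletal muscle markers in CPM, both on log axes, for 38 whole-BAT libraries; filled points have a Cox6a2 count, and open triangles at the lower edge are the 11 libraries without one. The 14 libraries over 5 CPM all have muscle sums of at least 1351 CPM.

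Removal of Treg cells was followed by lower complexes II to V in BAT of the D4 groups. Of 46 members tested, 34 were lower in DTR+ than in DTR- mice and 0 higher, where 7.36% and 8.73% of all 11695 genes tested (16.1% in all) were called lower and higher. The members' median log2 fold change was -0.36, against 0.02 for all genes, and 45 of 46 lay below 0. Their summed level was 58156 ± 1516 CPM in DTR+ and 79068 ± 4706 CPM in DTR- mice (SD, n = 4 each). The size of this fall depends on the scaling. The 50 most abundant genes took 32.5 ± 1.17% of counts in DTR+ and 37.7 ± 1.25% in DTR- libraries. Under total-count scaling the median of all genes moves by 0.25, all genes split into 2280 higher and 239 lower in place of 1021 and 861, and 6 members were called lower (Uqcrc2, Uqcrfs1, Atp5a1, Uqcrc1, Sdhb and Sdha) with 39 of 46 below 0. Relative to all genes the members' median was -0.37 under both scalings, a value that a change of scaling leaves nearly fixed. As a plain share of all counts the members took 5.95 to 6.41% in DTR+ and 6.45 to 7.05% in DTR- libraries, which did not overlap.

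**Figure D4:**
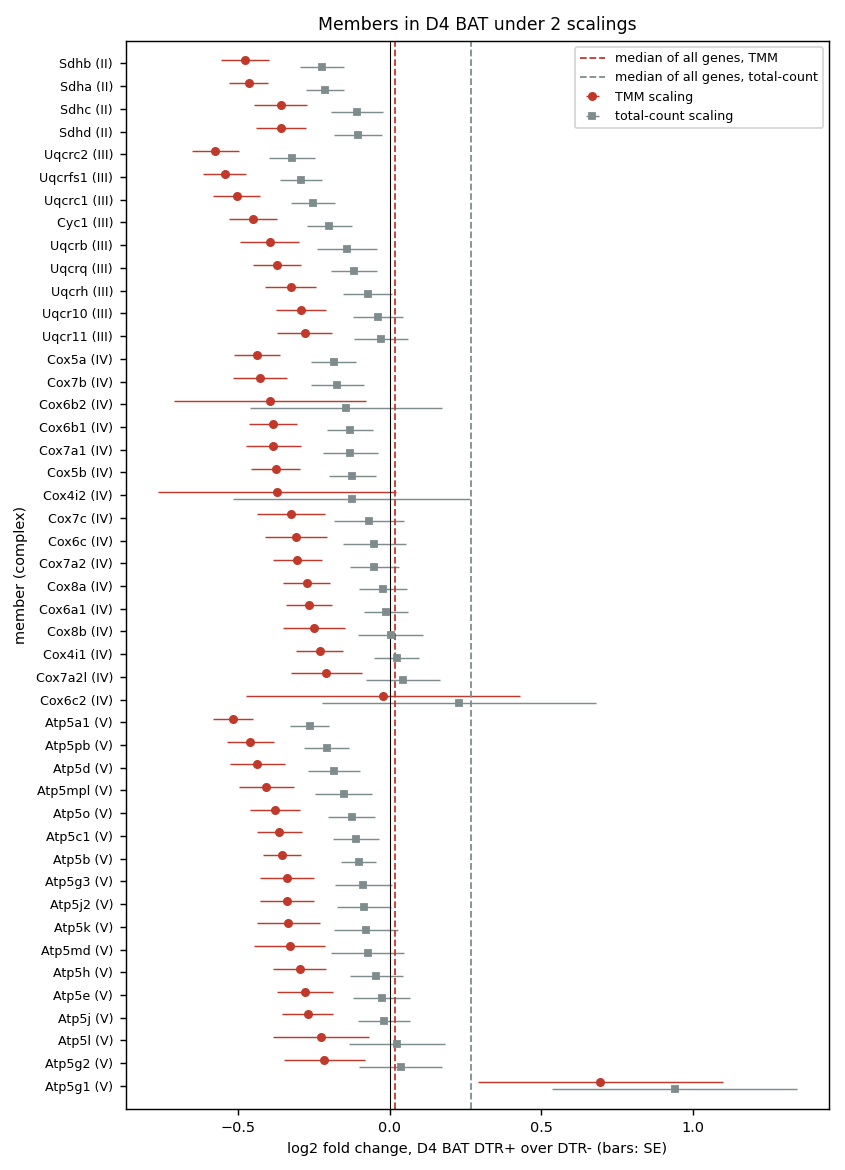
Log2 fold change of D4 BAT DTR+ over DTR- with its SE for the 46 members tested, by complex, under TMM scaling (red circles) and total-count scaling (grey squares); dashed lines are the medians of all genes under each. Members lie left of the all-gene line of their own scaling, by 0.37 at the median, except Atp5g1, which lies at 0.70 with an SE of 0.40, and total-count scaling shifts members and all genes alike.

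Of the 34 calls, 25 held in every fit without 1 library. The others, lost in at least 1 of 8 such fits, were Atp5e, Atp5h, Atp5j, Atp5j2, Atp5k, Cox6a1, Cox8a, Uqcr10 and Uqcr11.

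All 9 members of complex III were lower (median -0.40, range -0.58 to -0.28). Uqcrc2 (chromosome 7, 120635176 to 120659524), a core protein, had 1074, 1177, 1099 and 1179 CPM in DTR+ BAT, against 1655.5, 1876, 1733 and 1738 CPM in DTR- BAT. The groups lay far apart beside their own spread, at -0.58 ± 0.08 (edgeR adjusted p = 0.00011). Next came Uqcrfs1, the Rieske iron-sulfur protein, at -0.55 ± 0.07 and Uqcrc1 at -0.51 ± 0.08. The small subunits Uqcr10 and Uqcr11 fell least, at -0.29 ± 0.08 and -0.28 ± 0.09, and were called in 5 and 2 of 8 fits without 1 library. Uqcrc2, Uqcrfs1 and Uqcrc1 were also lower under total-count scaling, at -0.32, -0.29 and -0.25.

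All 4 members of complex II were lower (median -0.41). Sdha (chromosome 13, 74322254 to 74350280), the flavoprotein that oxidises succinate, had 3615.5, 3407, 3532 and 3503.5 CPM in DTR+ BAT, against 5071.5, 5276.0, 4821.5 and 4974 CPM in DTR- BAT. All DTR+ libraries were below all DTR- libraries, at -0.47 ± 0.07 (edgeR adjusted p = 0.00017). Sdhb stood at -0.48 ± 0.08, and the membrane anchors Sdhc and Sdhd both at -0.36.

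In complex V 13 of 17 members were lower (median -0.34). Atp5a1, the alpha subunit of the catalytic head, had 4669, 4993, 5002 and 4787 CPM in DTR+ BAT, against 7445, 7687, 6874 and 6892.5 CPM in DTR- BAT. At -0.52 ± 0.07 (edgeR adjusted p = 8.8e-05) it fell more than its partner Atp5b at -0.35 ± 0.06, though the difference between the 2 was not tested. Atp5pb, subunit b of the stator stalk, fell by 0.46 and Atp5d, the delta subunit, fell by 0.44 on the log2 scale. The 4 not called were Atp5md, Atp5l, Atp5g2 and Atp5g1. Atp5g1 had 25.5, 11.0, 16.4 and 7.6 CPM in DTR+ BAT and 6.2, 5.6, 14.7 and 12.2 CPM in DTR- BAT, which overlap, and its log2 fold change was 0.70 ± 0.40 (edgeR adjusted p = 0.30).

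Complex IV had the smallest share of members called, with 8 of 16 tested lower (median -0.32, range -0.44 to -0.02). Cox5a, a subunit on the matrix side, had -0.44 ± 0.08 and Cox7b -0.43 ± 0.09. Cox7a1 had 660, 720, 612 and 716 CPM in DTR+ BAT, against 978, 973, 794 and 925 CPM in DTR- BAT, without overlap and called at -0.38 ± 0.09 (edgeR adjusted p = 0.0075). Cox8b had 1889, 2147, 1597 and 2062 CPM in DTR+ BAT and 2725, 2391, 2008 and 2378 CPM in DTR- BAT, where 2 DTR+ libraries were above the lowest DTR- library. At -0.25 ± 0.10 (edgeR adjusted p = 0.11) it was not called, nor were Cox4i1 at -0.23 (adjusted p = 0.052), Cox6c at -0.31 (0.0501), Cox7c at -0.33 (0.061) and the supercomplex factor Cox7a2l at -0.21 (0.26).

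The shares of the tissue isoforms gave no p under 0.05. Cox7a1 made up 52.5 ± 1.56% of its pair in DTR+ and 53.8 ± 1.71% in DTR- BAT (exact permutation p = 0.31, adjusted over 15 tests 0.67), and Cox8b 63.3 ± 2.10% in DTR+ and 63.0 ± 1.04% in DTR- BAT (exact permutation p = 0.83, adjusted 1). For Atp5g1 the shares were 5.39 ± 2.61% in DTR+ and 2.76 ± 1.28% in DTR- BAT (exact permutation p = 0.14, adjusted 0.36), all with n = 4 each and SD.

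Other genes of the same pathway were lower too in D4 BAT. Of the nuclear subunits of complex I, 32 of 36 tested were lower and 0 higher (median -0.42), led by Ndufs1 at -0.62 ± 0.08 and Ndufv2 at -0.53 ± 0.08. Among assembly factors of complexes II to V 10 of 32 were lower and 0 higher (median -0.29), such as Uqcc1, which acts on complex III, at -0.57 ± 0.09 and Coa5, which acts on complex IV, at -0.50 ± 0.08. Of the 5 carrier, inhibitor and supercomplex genes 4 were lower and 1 higher, with Higd1a at -0.75 ± 0.10, Cycs at -0.62 ± 0.10 and, as the one higher, Atpif1, the inhibitor of ATP synthase, at 0.82 ± 0.21. The mitochondrially encoded subunits mt-Cytb (-0.45 ± 0.06) and mt-Co2 (-0.68 ± 0.16) were lower and the other 4 of 6 were not called. Of 11 regulators of mitochondrial genes tested 1 was called, the coactivator Ppargc1a, which was higher at 0.73 ± 0.19 (edgeR adjusted p = 0.021), and Pprc1, a related coactivator, had 1.11 ± 0.39 (adjusted p = 0.070).

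Markers of other cells moved in the same libraries. The summed level of 7 leukocyte markers was 475 to 1150 CPM in DTR+ and 107 to 303 CPM in DTR- BAT, with 5 of 6 tested markers higher. That of 7 brown adipocyte markers was 7502 to 8720 CPM in DTR+ and 12448 to 14698 CPM in DTR- BAT, with 5 lower and 1, Ppargc1a, higher, and Ucp1 fell by 1.08 ± 0.09 on the log2 scale (edgeR adjusted p = 3.2e-06). Of 8 general adipocyte markers 1 was lower, and 0 of 13 tested muscle markers were called, at sums of 76.7 to 8715 CPM in DTR+ and 88.1 to 3837 CPM in DTR- BAT. No marker of these lists was at 0 in either group. The part of these cells in the members' fall was not tested.

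In SAT of the D4 groups no member passed the test. Of 44 tested edgeR called 0 (0.314% of all 12728 genes were called, 0.0157% lower), DESeq2 called 0 as well, 1 (Cox7a1) had an unadjusted p under 0.05 and the median was 0.03. The summed level was 17918 ± 2035 CPM in DTR+ and 18136 ± 2029 CPM in DTR- SAT (SD, n = 4 each). Uqcr10, for example, had 195, 219, 259 and 214 CPM in DTR+ SAT and 174, 192, 222 and 196 CPM in DTR- SAT, which overlap. The largest log2 fold change of the 44 was that of Cox7a1, with 4.7, 3.7, 10.4 and 5.7 CPM in DTR+ SAT and 4.7, 9.0, 24.6 and 19.7 CPM in DTR- SAT, at -1.23 ± 0.50 (edgeR adjusted p = 0.63). Its share was 2.71 ± 0.762% in DTR+ and 6.56 ± 3.68% in DTR- SAT (exact permutation p = 0.086, adjusted 0.26; SD, n = 4 each). Complex I, the assembly factors and the regulators had 0 called in SAT.

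Whether BAT and SAT of the D4 groups differed in their response was tested as the difference of the 2 log2 fold changes. It was below 0 for 45 of 47 members tested, with a median of -0.42 against -0.00 for all genes, and 4 members were called lower where 1.05% of all 13502 genes were (3.06% were higher, 4.11% in all). They were Atp5h, a stator subunit of complex V, at -0.56 ± 0.15 (edgeR adjusted p = 0.041), Uqcr10 at -0.51 ± 0.14 (0.046), Uqcrh, the hinge protein of complex III, at -0.50 ± 0.14 (0.040) and Cox8a at -0.48 ± 0.13 (0.044). In BAT Uqcr10 had 750.0, 793, 723 and 798 CPM in DTR+ and 1011, 1034, 857 and 996 CPM in DTR- mice. The calls are near the threshold. None was made under total-count scaling, where all genes split 1053 higher and 20 lower in place of 413 and 142. Nor was any made without both SAT replicates 3, of which that of DTR+ mice had 3416 CPM of muscle markers. Relative to all genes the members stood at -0.42 under both scalings, a value that a change of scaling leaves nearly fixed. Leaving out 1 library gave 4 calls without BAT DTR- replicate 3, 6 without SAT DTR- replicate 3, 2 without SAT DTR+ replicate 1 and 0 without any 1 of the other 13 libraries, while DESeq2 called 12. Of related genes 4 of 36 complex I subunits, led by Ndufv3 at -0.66 ± 0.15, and the assembly factor Uqcc2 (-0.58 ± 0.16) were called.

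In the D3 groups of BAT 43 of 47 members lay below 0 in DTR+ over DTR- mice by TMM, but 18 of 47 under total-count scaling, and 1 was called. Of 47 tested 1 was lower and 0 higher, where 1.29% and 2.24% of all 11666 genes (3.52% in all) were called. The median was -0.18, against 0.02 for all genes, and 15 had an unadjusted edgeR p under 0.05, as had 2086 of all 11666 genes. Uqcrc2, the member called, had 1510.5, 1288 and 1346 CPM in DTR+ BAT, against 2182, 1848 and 1788 CPM in DTR- BAT, at -0.46 ± 0.11 (edgeR adjusted p = 0.032). Its call held in 1 of 6 fits without 1 library, that without DTR- replicate 3, and adjusted p ran up to 0.12 in the others. Total-count scaling called 0 members and moved the median of all genes by 0.20 (565 higher and 63 lower in place of 261 and 150). Relative to that median the members stood at -0.21, as against -0.20 by TMM, a value that a change of scaling leaves nearly fixed. Complex II had a median of -0.30, complex III -0.26, complex IV -0.15 and complex V -0.22. Related genes called lower were the complex I subunits Ndufa11 (-0.47 ± 0.12) and Ndufb5 (-0.41 ± 0.11), the assembly factor Cox19 (-0.68 ± 0.13) and Higd1a (-0.67 ± 0.12). Leukocyte markers summed to 307 to 375 CPM in DTR+ and 109 to 216 CPM in DTR- BAT, with 2 of 6 tested higher. Brown adipocyte markers summed to 10077 to 13030 CPM in DTR+ and 15833 to 20293 CPM in DTR- BAT, with 2 of 7 lower and 0 higher.

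In D3 SAT 0 of 44 members tested were called, as were 0 of all 12596 genes, and 0 had an unadjusted p under 0.05 (DESeq2 called 0 members). The median log2 fold change was 0.08. The difference between BAT and SAT in D3 was called for 0 of 47 (0.0675% of all genes; 6 had an unadjusted p under 0.05 and DESeq2 called 0), with a median of -0.32. Under total-count scaling all genes had 60 higher and 2 lower in place of 8 and 1, and their median moved by 0.20. Relative to all genes the members stayed at -0.32, a value that a change of scaling leaves nearly fixed. In the simulated data of this design 2% of genes changed by log2 0.5 were recovered. The changed genes were drawn from all genes of at least 100 CPM, so this does not give the rate for the members.

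In DTR- mice given CL, single subunits differed from PBS in both directions. The sum was 74262 ± 2788 CPM with CL and 78128 ± 5197 CPM with PBS (SD, n = 3 each). Of 46 members 2 were higher and 4 lower, where 16.3% and 11.8% of all 12048 genes tested (28.1% in all) were called, and the difference between these shares was not tested. The median was -0.09, against -0.03 for all genes. The falls were clearest in the membrane anchors of complex II. Sdhc (chromosome 1, 171127165 to 171150603) had 214, 157 and 247 CPM with CL, against 444, 469 and 506 CPM with PBS, and Sdhd (chromosome 9, 50596357 to 50603812) had 929, 899 and 845 CPM with CL, against 1347, 1581 and 1689.5 CPM with PBS. Neither pair of groups overlapped, at -1.11 ± 0.22 (edgeR adjusted p = 0.0021) and -0.70 ± 0.17 (0.0069), and both calls held without any 1 library, with adjusted p up to 0.012 and 0.038.

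The other calls under CL were near the threshold. Uqcr11 (-0.52 ± 0.18, edgeR adjusted p = 0.044) and Atp5mpl (-0.42 ± 0.15, 0.049) were lower. Cox4i1 (chromosome 8, 120668222 to 120674207), the common form of subunit 4, was higher at 0.63 ± 0.20 (0.032), with 4697, 8571.5 and 5423 CPM with CL and 4139, 4160.2 and 4564 CPM with PBS. Without CL replicate 2, the highest of all, the fold was 0.33 and the adjusted p 0.16, and the count of members called was 2. Without any 1 of PBS replicates 1, 2 and 3 the count was 2, 2 and 3, and without CL DTR+ replicate 3, which shares the fit, it was 3. Cox7a2l was higher at 0.49 ± 0.16 (0.039) with 286, 309 and 321 CPM with CL and 219, 215 and 261 CPM with PBS. The muscle and brown fat isoforms were not called, but their shares did not overlap: Cox7a1 made up 47.2 ± 2.92% with CL and 56.8 ± 1.20% with PBS, and Cox8b 59.2 ± 3.78% with CL and 67.7 ± 1.57% with PBS (SD, n = 3 each). Groups of 3 cannot reach p = 0.05 in the exact test, so none was made.

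Among related genes, 8 of 11 regulators were higher with CL and 0 lower, with Ppargc1a at 4.89 ± 0.32 and Ppara, a fatty acid sensor, at 3.21 ± 0.28. Of 36 complex I subunits 1 was lower (Ndufs6, -0.51 ± 0.18, edgeR adjusted p = 0.049) and 0 higher. Assembly factors had 10 lower and 1 higher of 32 (median -0.44), with Sdhaf4, which assembles complex II, at -2.26 ± 0.28 and Cox11, which carries copper to complex IV, at 2.45 ± 0.45. The mitochondrially encoded mt-Co2 and mt-Cytb were lower, at -1.16 ± 0.26 and -0.82 ± 0.21. Brown adipocyte markers summed to 22590 to 28131 CPM with CL and 14509 to 18134 CPM with PBS. Of these 7 markers 3 were called higher and 0 lower, with Cidea, Otop1 and Pank1 below 0. Leukocyte markers summed to 114 to 135 CPM with CL and 224 to 709 CPM with PBS, with 5 of 7 lower. Endothelial markers were higher with CL in 3 of 5 (median 0.89). The part of these cells was not tested.

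With CL in both genotypes, 0 of 46 members were called between DTR+ and DTR- mice, where 7.72% of all genes were (4.51% higher, 3.21% lower; 543 higher and 387 lower, and 600 and 274 under total-count scaling). The edgeR test gave 10 members an unadjusted p under 0.05, DESeq2 called 4, all lower and Cox4i1 among them, and 40 of 46 lay below 0 with a median of -0.23 against 0.01 for all genes. Without CL DTR+ replicate 1, the highest of its group, edgeR called 3 members lower, and without PBS replicate 3 it called 1. The sum was 60522 ± 9145 CPM in DTR+ and 74262 ± 2788 CPM in DTR- mice (SD, n = 3 each), with DTR+ libraries from 53881 to 70952 CPM. Cox4i1 had 4800, 3757 and 3731 CPM in DTR+ and 4697, 8571.5 and 5423 CPM in DTR- mice, at -0.62 ± 0.20 (edgeR adjusted p = 0.074). Leukocyte markers summed to 885 to 1031 CPM in DTR+ and 114 to 135 CPM in DTR- mice, with 6 of 7 higher, and their part was not tested. Of related genes Cox11 (-1.84 ± 0.44), Coa5 (-0.59 ± 0.14), Ppara (-1.40 ± 0.26) and Ppargc1b, a coactivator (-1.48 ± 0.23), were called lower.

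In the cold, members differed both ways from the PBS libraries. Those were given DT, which the labels of the cold group do not name, so that cold and toxin cannot be told apart. Of 46 tested 2 were higher and 5 lower, where 4.86% and 3.8% of all 12329 genes (8.66% in all) were called, with a median of 0.01. Total-count scaling called 6 higher and 4 lower (all genes 647 and 382 in place of 599 and 469). With D3 DTR-, D4 DTR- or wild-type isotype libraries in place of PBS, 19, 22 and 16 members were called. The sum was 74529 ± 6658 CPM in the cold and 78128 ± 5197 CPM with PBS (SD, n = 3 each). Sdha had 3158, 2627 and 3033 CPM in the cold, against 4623, 5353 and 5650.0 CPM with PBS, at -0.85 ± 0.13 (edgeR adjusted p = 0.0034), and the call held without any 1 library and with each of 3 other BAT control groups in place of PBS (-0.92 to -0.80). Uqcrh had 1633, 1455 and 1465.5 CPM in the cold and 1058, 1088 and 1091.5 CPM with PBS (0.46 ± 0.12), and Atp5mpl 910.1, 847 and 842 CPM in the cold and 571, 610.4 and 612.5 CPM with PBS (0.51 ± 0.12). Neither overlapped, and both were higher with each of the other controls, at 0.42 to 0.51 and 0.71 to 0.73.

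The other cold calls were Cox6a1 at -0.58 ± 0.14, Uqcr11 at -0.54 ± 0.12, Cox8b at -0.52 ± 0.14 and Atp5j at -0.44 ± 0.12 (edgeR adjusted p from 0.017 to 0.049). Against wild-type isotype libraries Cox6a1 (-0.21), Cox8b (-0.16) and Uqcr11 (0.08) were not called, and Atp5j was not called against D3 DTR- libraries (-0.32, edgeR adjusted p = 0.071). Leaving out single libraries gave counts of 3 (PBS replicate 1), 1 (PBS replicate 2), 2 (cold replicate 1), 2 (cold replicate 2) and 1 (cold replicate 3). Complex I had 4 higher and 4 lower of 36, led by Ndufb7 at 0.75 ± 0.13 and Ndufs1 at -0.63 ± 0.14, and the mitochondrially encoded genes 4 lower of 6, with mt-Co1 at -0.79 ± 0.16. Assembly factors had 2 higher and 3 lower of 32, with Cox14 at -1.17 ± 0.14. Of the regulators Ppargc1a was higher at 1.11 ± 0.22. Brown adipocyte markers summed to 27360 to 29119 CPM in the cold and 14509 to 18134 CPM with PBS. Of these 7 markers 4 were higher and 1, Cidea, was lower at -0.62. Leukocyte markers summed to 159 to 215 CPM in the cold and 224 to 709 CPM with PBS, with 1 of 6 tested lower. Endothelial markers were higher in the cold in 4 of 5 (median 1.12). The part of these cells was not tested.

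Cold was also set against CL, with the same cold and CL libraries as in the comparisons with PBS, and again with DT named only for CL. Cold was higher than CL for 9 members and lower for 6 of 46, where 14.9% and 17.3% of all 12206 genes (32.2% in all) were called, with a median of 0.10 against 0.05. Total-count scaling called 12 members higher and 5 lower, and all genes then split 2064 higher and 1829 lower in place of 1822 and 2112. Atp5mpl had 910.1, 847 and 842 CPM in the cold, against 433, 384 and 438 CPM with CL, at 0.96 ± 0.13 (edgeR adjusted p = 0.00020). Sdhc had 380, 367 and 365 CPM in the cold and Sdhd 1675, 1404 and 1331 CPM, against the CL values above, at 0.76 ± 0.17 and 0.63 ± 0.14. Cox7a1 had 1483, 1133 and 1172 CPM in the cold, against 732, 764 and 859 CPM with CL, without overlap and at 0.60 ± 0.15 (0.0083). Cox8a (-0.63 ± 0.14) and Atp5b (-0.63 ± 0.14) were the lowest. The count was 7 in place of 15 without CL replicate 1, and 5 of the 15 calls held without any 1 library. Complex I had 14 higher and 0 lower of 36, and of the regulators Ppargc1a (-3.76 ± 0.25) and Ppara (-3.43 ± 0.20) were lower. Adipocyte markers were lower in 5 and higher in 2 of 8, fibroblast markers lower in 3 of 5 and endothelial markers higher in 3 and lower in 1 of 5, and their part was not tested.

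**Figure D5:**
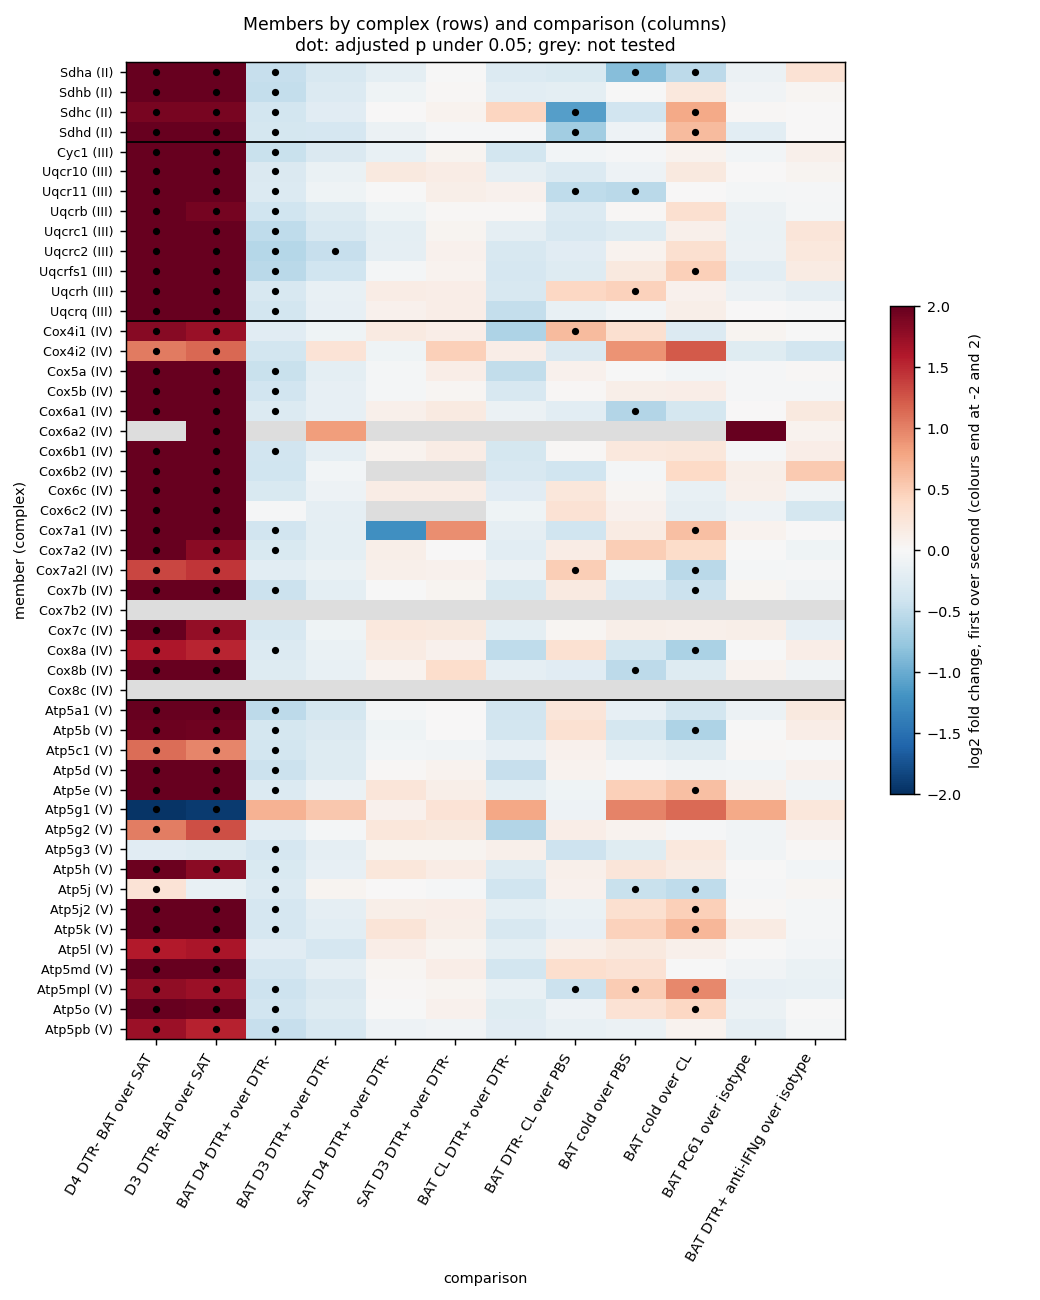
Log2 fold change (colour, ending at -2 and 2) of the 49 members by complex (rows) in 12 comparisons (columns, first group over second); dots mark an edgeR adjusted p under 0.05 and grey cells were not tested. BAT over SAT is high for nearly all members but Atp5g1 and Atp5g3, D4 BAT DTR+ over DTR- is low for 45 of 46, and the columns of SAT, PC61 and anti-IFNg hold 0 calls.

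The antibody experiments gave 0 calls among the members. With PC61 0 of 47 were called (0.651% of all 11513 genes were, 19 higher and 56 lower, and 25 and 29 under total-count scaling), 0 had an unadjusted p under 0.05, DESeq2 called 0, and the median was -0.02. That scaling moves the median of all genes by 0.11 and puts 12 of 47 members below 0 in place of 30, so that no direction is given for them. The sum was 67730 ± 5790 CPM with PC61 and 71712 ± 1636 CPM with isotype (SD, n = 3 each). Sdha had 4224, 4213 and 4904 CPM with PC61 and 4944, 5026.5 and 4829 CPM with isotype, which overlap. In DTR+ mice with DT, the antibody to IFNg left 0 of 47 called (0.541% of all 12017 genes, 0.0333% higher), with 4 at an unadjusted p under 0.05 (Atp5a1, Sdha, Uqcrc1 and Uqcrc2), 0 called by DESeq2 and a median of -0.00. The sum was 56948 ± 4250 CPM with the antibody and 53075 ± 1783 CPM with isotype (SD, n = 3 each), and Sdha had 2908, 2716 and 3347 CPM with the antibody and 2272, 2471.5 and 2435 CPM with isotype, which do not overlap (0.29 ± 0.09, edgeR adjusted p = 0.30). In simulated data 5% of genes changed by log2 0.5 were recovered in the PC61 design and 14% in the IFNg design. These rates are for genes drawn from all those of at least 100 CPM, not for the members.

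Ordered by group mean, the summed level was highest in D3 DTR- BAT at 82000 CPM, followed by D4 DTR- BAT at 79068 CPM and PBS at 78128 CPM. The 4 lowest BAT groups were the DTR+ groups with CL, of D4, with anti-IFNg and with isotype, at 60522, 58156, 56948 and 53075 CPM, and the fifth DTR+ BAT group, D3, stood seventh of 12 at 67942 CPM. Ranges of neighbouring BAT groups overlapped all along this order. The 4 SAT groups lay between 17918 and 20323 CPM, and the step from the lowest BAT to the highest SAT group was the only one without overlap. This order is that of TMM-scaled levels. As a share of all counts PBS was highest at 6.986%. D3 DTR- BAT then stood at 6.726%, below D4 DTR- BAT (6.805%), DTR- with CL (6.785%) and cold (6.767%). The same 4 DTR+ groups were the lowest of BAT, at 5.64 to 6.181%. Groups from different experiments were not tested against each other.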

How the data were processed

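RNA of whole BAT and SAT was analysed in 52 libraries of 16 groups; 8 libraries of sorted Treg cells entered no comparison. Per the labels, 2 ng of RNA were primed with oligo(dT) and made into libraries with Smart-seq2 and Nextera XT. The authors deposited raw read counts per gene; the submitters' processing notes name STAR 2.7.3a, featureCounts and mm10. Neither the annotation release nor the strand setting is given in the sources used here.

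Counts were filtered with filterByExpr, scaled by TMM and tested with edgeR 4.0.16 (R 4.3.3; quasi-likelihood F test, robust) within the groups a comparison is about, with PBS and both CL groups in 1 fit. P-values were adjusted by Benjamini-Hochberg over all genes tested, at 0.05, and an SE is the absolute log2 fold change divided by the square root of F. Isoform shares were compared by two-sided exact permutation tests (SciPy 1.17.1). Fits were tested on simulated data, 1 set per design. The D4 BAT design recovered 22% of genes changed by log2 0.5 and 95% of those changed by log2 1, with 4.88% false calls. Over the 14 designs false calls ran from 1.69% (DTR+ over DTR- with CL) to 14.4% (cold over PBS). They were 10.1% in D3 BAT and 8.51% in cold over CL. Recovery at log2 1 ran from 47% (CL over PBS) to 96% (antibody to IFNg). A chi-square of gene counts between libraries of a group, divided by its degrees of freedom, was 7.14 to 37.6 over 60 pairs (genes with at least 20 counts), so no library was a copy. In no directly compared pair of groups did every same-numbered pair of libraries vary together at r over 0.1 (-0.287 to 0.228 in D4 BAT), so numbers were not used as pairs. BAT and SAT of D3 DTR+ mice, which meet only in the D3 difference, did (0.119 to 0.227). For BAT and SAT of D4 DTR- mice r was 0.0383 to 0.226, and 3 of 4 BAT libraries varied most closely with the SAT library of their own number.

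In each comparison the rule for named genes took the isoform members, of the others the 2 with the smallest p in each complex, 2 of each list of related genes, and Ucp1, and the text gives part of these. Every member called in a comparison of at most 5 calls in a direction is named; any further member, such as Atp5b, Uqcr10 or Sdhc in D4 BAT, was chosen after its values were seen. Members and lists were chosen with earlier results of these data known. Alternatives were DESeq2 1.42.0, RLE factors, no filter, a replicate block, a wider or narrower fit, other controls for cold, leaving out each library, and, chosen after seeing the data, total-count scaling, leaving out both SAT replicates 3 of D4 and a block by genotype and number. Depth was 3007241 to 9673342 counts per library.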

Additional observations from a re-analysis of the deposited data

Results flagged for a closer look

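Of 80 groups of values examined in the D4 libraries, 11 held a library apart from the rest of its group, where chance gives about 1 in 20. In BAT DTR+ mice 1 library had a Cox6a2 level of 25.2 CPM (the others 0 to 1.52 CPM) and a Cox6a2 share of 0.926% (0 to 0.0620%), beside the highest muscle marker sum of its group, 8715 CPM. A Cox4i2 share of 0.0393% in that group stood below the others at 0.108 to 0.121%. In BAT DTR- mice Cox4i1 was at 4062 CPM in 1 library and 4780 to 4911 CPM in the others.

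SAT DTR+ replicate 3, with 3416 CPM of muscle markers, stood apart in 6 measures. Its summed complex IV was 6188 CPM (4830 to 4984 CPM in the others), its Cox6a2 level 6.47 CPM (0.112 to 0.243 CPM) and its Cox6a2 share 0.777% (0.0157 to 0.0356%). Its Cox8b level was 171 CPM (121 to 126 CPM), its Cox8b share 22.5% (19.9 to 20.002%) and its Atp5g3 level 495 CPM (394 to 411 CPM). In SAT DTR- mice Atp5g3 was at 358 CPM in 1 library and 425 to 438 CPM in the others. The part of muscle in these values was not tested.

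The difference in D4 response between BAT and SAT was called for Atp5h (-0.56), Uqcr10 (-0.51), Uqcrh (-0.50) and Cox8a (-0.48, log2 scale), with edgeR adjusted p of 0.040 to 0.046.

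The sorted Treg libraries, which the comparisons do not use, gave 0.642 to 0.801% of their counts to the members, with a median of 0.713%. Cox7a1 and Cox8b had 0 to 4 counts each in them, where a count of 0 allows up to 0.524 to 0.643 CPM of the unscaled totals, a limit for counting error only.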

How the results depend on the processing

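Depth and 3 or 4 libraries a group limit what could be called, and several single calls lay near the threshold. Counts of members called stayed within 1.5 times in 71 of 91 other settings and in 80 of 112 fits without 1 library. A count of 0 in both fits was taken as unchanged. D4 SAT, D3 SAT, the D3 difference and both antibody comparisons had 0 calls in every fit without 1 library. The figure for those fits is therefore higher than for comparisons with calls alone. The tests of isoform shares, none of which passed the correction, kept their outcome in all 135 settings. That outcome does not say how far the shares themselves moved, which is not given here. The causes of the changes given here were not tested, beyond fewer libraries where some were left out.

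Total-count scaling called 6 members in D4 BAT (34 by TMM), 0 in the D4 difference (4) and 0 in D3 BAT (1), and gave summed D4 levels of 61808 CPM in DTR+ and 68049 CPM in DTR- BAT, and of 21117 CPM in DTR+ and 21381 CPM in DTR- SAT. It moved the mean summed level of II to V by at least the group's SD in 13 groups and by less in 3. It turned Atp5j in D4 BAT over SAT to -0.211. Without the filter on low counts 1 member was called in D4 SAT, 13 in the D4 difference, 7 in D3 BAT, 1 in the D3 difference and 2 between genotypes with CL. DESeq2 called 12 in the D4 difference, 2 in D3 BAT and 4 between genotypes with CL. Fitting all BAT groups together called 4 in D3 BAT and 12 in cold over PBS. Leaving out both SAT replicates 3 called 0 in the D4 difference.

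With other controls cold gave 19 (D3 DTR-), 22 (D4 DTR-) and 16 calls (wild-type isotype) in place of 7, and the sign turned for Atp5g2 (-0.452 against D4 DTR-) and Uqcr11 (0.075 against wild-type isotype).

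With a replicate block 39 members were lower in D4 BAT, CL over PBS had 3 calls and cold over PBS 1, and a block by genotype and number left 0 in the D4 difference. BAT and SAT libraries of D3 DTR+ mice varied together by number (r of 0.119 to 0.227), and in the D3 difference either block called 0 members, as without it. No paired analysis was possible because the groups share only 1 number for the antibody to IFNg.

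Leaving out 1 library gave 25 to 39 calls in D4 BAT, 0 to 6 in the D4 difference, 0 to 1 in D3 BAT, 43 to 45 in D4 and 43 to 44 in D3 BAT over SAT, 2 to 7 in CL over PBS, 0 to 3 between genotypes with CL, 1 to 6 in cold over PBS and 7 to 16 in cold over CL.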
